A study of Xenopus laevis with 16 samples.

Results

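A set of 10 genes of RNA binding and splicing, most of them known from neurons, was followed in Xenopus laevis animal caps: elavl1, elavl2, elavl3, elavl4, nova1, nova2, rbfox3, srrm4, ptbp1 and ptbp2. Every row of the gene counts with one of these names, in either copy, was taken, which gave 19 rows of 45038. Xenopus laevis is allotetraploid and carries an .L and an .S copy (homeologs) of most genes, and nova2 was present as nova2.S only. Animal caps are pieces of blastula ectoderm that form epidermis when cultured alone. Ptf1a caps came from embryos that received 20 pg of ptf1a-GR mRNA at the 2-cell stage, in the animal pole of both cells. Mutant caps received the same dose of ptf1aW224A/W242A-GR, and Neurog2 caps that of GR-neurog2. Ptf1a and Neurog2 are bHLH transcription factors, and GR, the hormone-binding part of the glucocorticoid receptor, keeps a fused protein inactive until dexamethasone is added. Control caps, labelled CC, were also treated with dexamethasone, and it is not clear from the labels whether they had been injected. Each kind of cap was collected after 25 h and after 6 h in dexamethasone, with 2 libraries per group and 16 in all. Injected mRNA was not under a tissue-specific promoter, so it could act in any cell of the cap. The labels do not say whether the 2 libraries of a group came from separate batches of embryos, so p-values measure the spread between these libraries, which may be technical.

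The 10 genes act at different points of neuronal RNA metabolism. The Elavl (Hu) proteins bind AU-rich and U-rich stretches of RNA and affect its stability, splicing and translation: elavl1 (HuR) is broadly expressed, while elavl3 (HuC) and elavl4 (HuD) mark postmitotic neurons in vertebrates, and elavl2 (HuB) is expressed in neurons and in germ cells. Nova1 and Nova2 regulate alternative splicing in mammalian neurons, and Rbfox3 is the NeuN antigen of mature neurons. Srrm4 (nSR100) promotes inclusion of neuronal microexons in mammals. Ptbp1 represses neuronal exons in non-neuronal mammalian cells, and Ptbp2 is its paralogue of the nervous system, which replaces it as mammalian neurons form.

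Library depth ran from 31436437 to 228346016 counts over the 16 libraries. In a principal component analysis of log2 CPM (counts per 1e6 counts), the first component held 85.5% of the variance and the second 5.13%. Levels below are CPM on TMM-scaled library sizes, in the order replicate 1, replicate 2. The injected genes followed the labels at 6 h: ptf1a.L was at 181 to 184 CPM in Ptf1a caps and 146 to 152 CPM in mutant caps, against 0.161 to 0.187 CPM in control caps, and neurog2.L was at 158 to 192 CPM in Neurog2 caps, against 0.257 to 0.373 CPM in control caps. Most low counts were even numbers (80.5 to 85.6% of values from 1 to 20 in each library), so counts are not independent reads. Over the 11 copies of elavl3, elavl4, nova1, nova2, rbfox3 and srrm4, replicate 2 of the Neurog2 caps of 25 h was 2.66 to 4.38 times as high as replicate 1, and replicate 1 of the mutant caps of 25 h was 2.12 to 10.8 times as high as replicate 2. In Ptf1a caps of 25 h, replicate 2 was 0.570 to 2.30 times replicate 1. A list of 20 copies of other neuron genes summed to 1108 to 1151 CPM in Ptf1a caps of 25 h, 369 to 1192 CPM in mutant caps, 867 to 2954 CPM in Neurog2 caps and 54.3 to 77.1 CPM in control caps, and 18, 10 and 16 of the 20 were called higher in Ptf1a, mutant and Neurog2 caps of 25 h. Of these, ina.L, ina.S and stmn2.L had no count in control caps of 25 h, and ina.L had none in Neurog2 caps either. In bulk libraries, more cells of a type and more RNA per cell cannot be told apart.

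At 25 h elavl3, elavl4, nova1, nova2, rbfox3 and srrm4 were far higher in injected caps than in control caps, and elavl1 and ptbp1 were not called. In Ptf1a caps 13 of the 19 copies were called higher than in control caps of 25 h, against 11.9% of all 30384 genes tested. There 1 was lower (elavl2.L), against 8.62%. The 13 were both copies of elavl3, elavl4, nova1, rbfox3, srrm4 and ptbp2, with nova2.S. In mutant caps 9 copies were higher, against 0.803% of all genes, and in Neurog2 caps 9 were higher, against 2.98%. None was lower in either, where 0.0329% and 0.105% of all genes were lower. The same 9 copies were called in both: elavl3.L, elavl3.S, elavl4.L, elavl4.S, nova1.L, nova2.S, rbfox3.L, srrm4.L and srrm4.S. The median log2 fold change of the 19 copies was 5.45 in Ptf1a caps, 3.87 in mutant caps and 4.12 in Neurog2 caps, beside 0.08, 0.01 and -0.02 over all genes tested. Calls are adjusted p under 0.05 in edgeR's quasi-likelihood test with Benjamini-Hochberg adjustment over all genes, in a fit of all 16 libraries. Over both control libraries of 25 h there were only 5 counts of rbfox3.L and 6 each of elavl4.S, nova1.S and srrm4.L. The sizes of their fold changes at 25 h are therefore rough. Without either control library of 25 h, 0 of the 9 calls in mutant caps and 0 of the 9 in Neurog2 caps were kept. With mutant replicate 1 left out 1 copy (nova2.S) was called, and with Neurog2 replicate 2 left out 5 were. Of the calls in Ptf1a caps, those of elavl2.L, elavl4.L, ptbp2.S and rbfox3.S were each lost in some fit with 1 library left out. The others were kept whichever library was left out. Marker lists of other cells also moved in Ptf1a caps. The 12 neural crest marker copies summed to 201 to 243 CPM in Ptf1a caps of 25 h, with 10 of 12 called higher, against 31.8 to 38.2 CPM in control caps. Epidermal markers (20 copies) summed to 51453 to 67874 CPM in Ptf1a caps and 106103 to 121141 CPM in control caps, with 1 of 19 tested called higher and 5 lower, and has1.L had no count in either. Of 11 neural progenitor copies 7 were higher in Ptf1a caps of 25 h (summed to 396 to 576 CPM, against 19.1 to 26.4 CPM in control caps), 2 in mutant caps and 4 in Neurog2 caps. Multiciliated cell markers summed to 167 to 168 CPM in Ptf1a caps and 743 to 854 CPM in control caps, with 7 of 10 lower, and ionocyte markers to 91.3 to 225 CPM in Ptf1a caps and 720 to 893 CPM in control caps, with 5 of 6 lower. Of 10 endoderm copies 3 were lower in Ptf1a caps (34.2 to 55.7 CPM, against 63.2 to 74.0 CPM in control caps), and of 10 tested mesoderm and muscle copies 1 was higher and 1 lower (7.10 to 10.6 CPM, against 9.66 to 15.6 CPM in control caps). In mutant and Neurog2 caps of 25 h, 0 multiciliated, ionocyte, endoderm or mesoderm and muscle copies were called. Of the neural crest copies 0 and 1 were called higher there, and of the epidermal copies 1 and 0, with 0 lower. Uncalled lists need not be unchanged: multiciliated markers summed to 329 to 593 CPM in mutant caps and 578 to 708 CPM in Neurog2 caps. The part of cell composition in the results below was not tested.

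**Figure D1:**
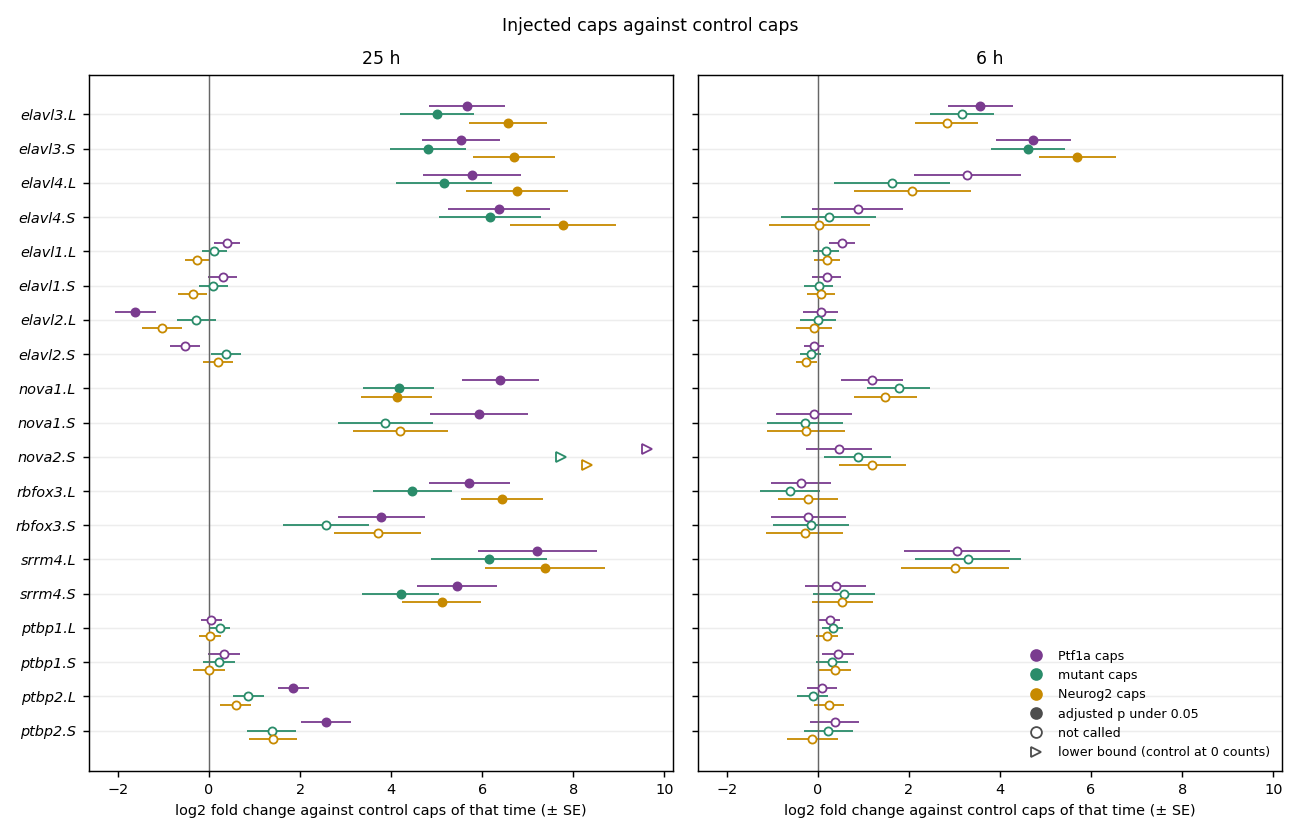
Log2 fold change against control caps of the same time for the 19 copies, with 25 h on the left and 6 h on the right; points are fitted values, bars ± 1 SE, filled points have an adjusted p under 0.05, and triangles are lower bounds where the control caps had 0 counts. At 25 h elavl3, elavl4, nova1, nova2, rbfox3 and srrm4 lie to the right of 2 for all 3 mRNAs, and at 6 h only elavl3 has filled points.

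elavl3 marks postmitotic neurons, and it was the only member with calls against control caps at both times. At 25 h elavl3.L (scaffold 81, 398507 to 424944, minus strand, build 9.1) was at 36.5 and 32.6 CPM in Ptf1a caps, 36.8 and 7.24 CPM in mutant caps, 27.7 and 102 CPM in Neurog2 caps, and 0.658 and 0.717 CPM in control caps. The copy elavl3.S (scaffold 20, 850291 to 882346, minus strand) was at 52.9 and 42.3 CPM in Ptf1a caps, 48.8 and 9.02 CPM in mutant caps, 40.7 and 175 CPM in Neurog2 caps, and 0.808 and 1.31 CPM in control caps. Both copies were thus above the control caps in all 6 injected libraries, and the lowest injected library was mutant replicate 2. The log2 fold change of elavl3.L was 5.66 ± 0.83 (SE) in Ptf1a caps, 5.0 ± 0.81 in mutant caps and 6.57 ± 0.86 in Neurog2 caps (edgeR adjusted p = 0.000826, 0.0188 and 0.0035). That of elavl3.S was 5.53 ± 0.86 in Ptf1a caps, 4.80 ± 0.84 in mutant caps and 6.71 ± 0.90 in Neurog2 caps (edgeR adjusted p = 0.00111, 0.0286 and 0.00366).

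Already at 6 h elavl3 stood above the control caps. elavl3.L was at 58.1 and 72.0 CPM in Ptf1a caps, 61.6 and 37.1 CPM in mutant caps, 42.8 and 35.1 CPM in Neurog2 caps, and 6.86 and 4.08 CPM in control caps. elavl3.S was at 22.5 and 30.3 CPM in Ptf1a caps, 29.5 and 19.1 CPM in mutant caps, 43.9 and 59.4 CPM in Neurog2 caps, and 1.11 and 0.863 CPM in control caps. No injected library overlapped a control library for either copy. With elavl3 included, 10 of the 19 copies in Ptf1a caps, 7 in mutant caps and 9 in Neurog2 caps did not overlap the control caps of 6 h. The share over all genes is not given here. Of the 19 copies, Ptf1a caps of 6 h had 2 called higher (elavl3.L and elavl3.S), against 0.885% of all genes. Mutant and Neurog2 caps had 1 each (elavl3.S), against 0.602% and 0.247%. The log2 fold change of elavl3.S was 4.73 ± 0.82 in Ptf1a caps, 4.61 ± 0.82 in mutant caps and 5.7 ± 0.85 in Neurog2 caps (edgeR adjusted p = 0.016, 0.025 and 0.0156). For elavl3.L it was 3.57 ± 0.72 in Ptf1a caps (edgeR adjusted p = 0.0389), and 3.17 ± 0.70 in mutant and 2.83 ± 0.70 in Neurog2 caps did not pass (edgeR adjusted p = 0.0829 and 0.266). Each of these 6 h calls was lost when either control library of 6 h was left out: elavl3.S in Ptf1a caps then had an adjusted p of 0.161 or 0.188. With both copies summed, elavl3 was called in Ptf1a caps of 6 h (3.81 ± 0.74, edgeR adjusted p = 0.0322) and not in mutant (3.52 ± 0.73, adjusted p = 0.0648) or Neurog2 caps (3.81 ± 0.74, adjusted p = 0.0873).

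**Figure D2:**
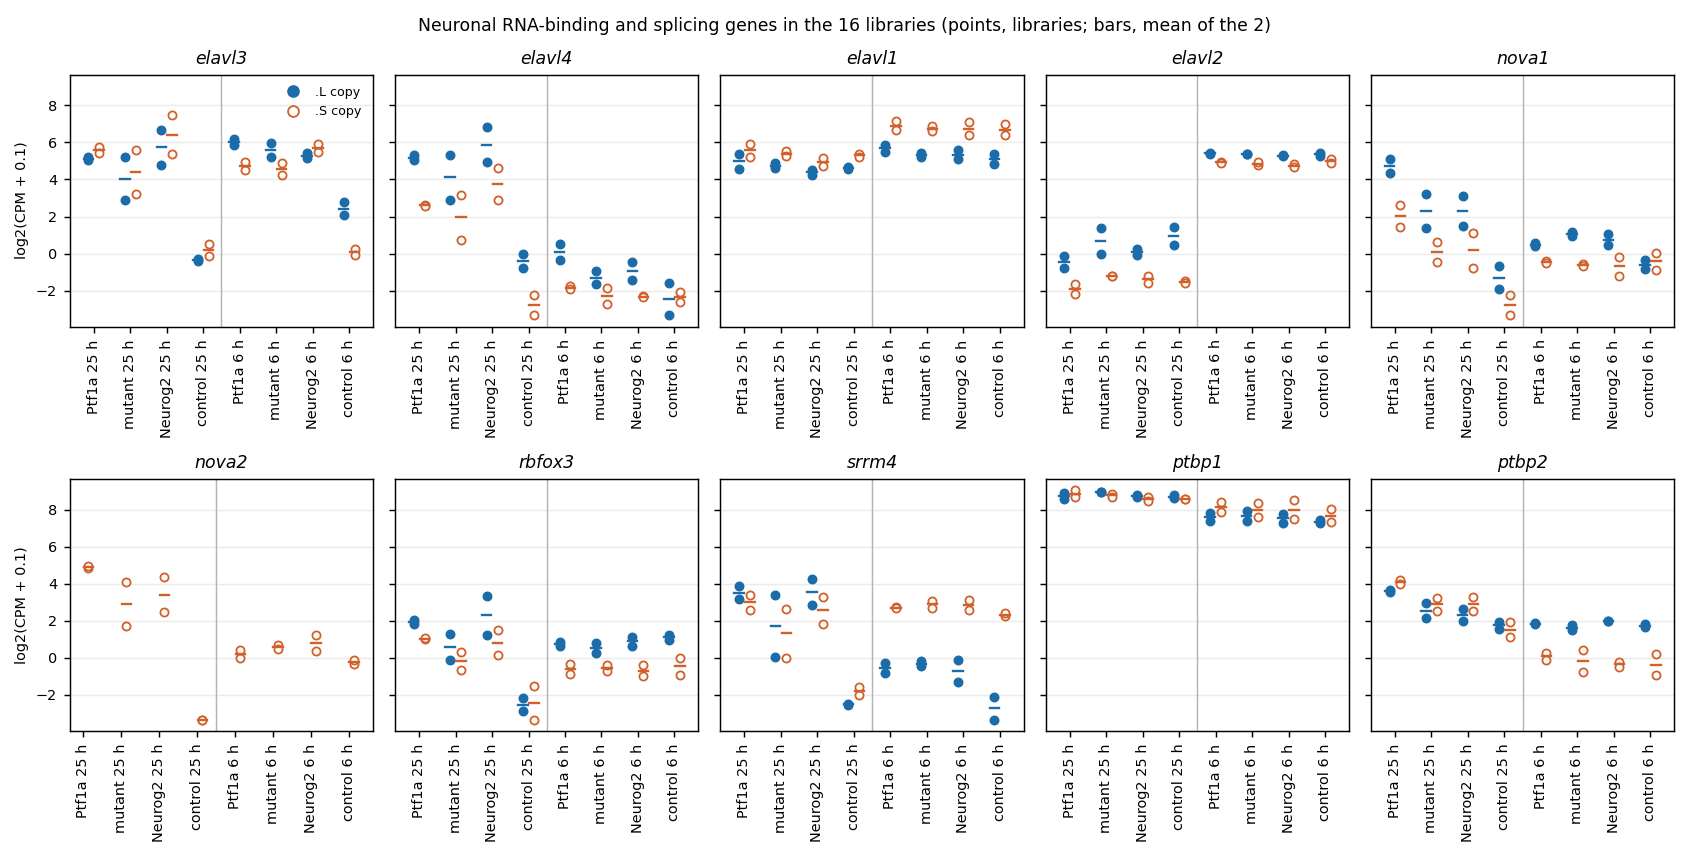
Level of each gene in the 16 libraries as log2(CPM + 0.1), with caps of 25 h left of the grey line and caps of 6 h right of it; filled points are the .L copy, open points the .S copy and bars the mean of the 2 libraries of a group on this scale. elavl3 is high in injected caps at both times, elavl4 is high in injected caps of 25 h only, elavl2 is high at 6 h in all 4 kinds of cap, and ptbp1 lies between 349 and 526 CPM in all libraries of 25 h.

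elavl4, the second neuronal Hu gene, was near 0 in all caps of 6 h and high in injected caps of 25 h. elavl4.L (chromosome 4L, 85559663 to 85624723, plus strand) was at 39.2 and 32.6 CPM in Ptf1a caps of 25 h, 40.0 and 7.30 CPM in mutant caps, 30.2 and 112 CPM in Neurog2 caps, and 0.489 and 0.876 CPM in control caps. At 6 h it was between 0.219 and 1.32 CPM in the 6 injected libraries and at 0 and 0.233 CPM in the control libraries. At 25 h the injected libraries therefore lay apart from the controls, with the same mutant and Neurog2 libraries lowest and highest as for elavl3. The log2 fold change of elavl4.L at 25 h was 5.77 ± 1.08 in Ptf1a caps, 5.16 ± 1.05 in mutant caps and 6.75 ± 1.12 in Neurog2 caps (edgeR adjusted p = 0.00317, 0.0481 and 0.00856). elavl4.S, the copy with fewer counts, was at 5.99 and 5.91 CPM in Ptf1a caps, 8.84 and 1.57 CPM in mutant caps, 7.28 and 24.1 CPM in Neurog2 caps and 0.113 and 0 CPM in control caps, and was called in all 3 (log2 fold changes of 6.37 ± 1.12, 6.17 ± 1.11 and 7.77 ± 1.16). Without control replicate 1 of 25 h, elavl4.L in Ptf1a caps just missed the threshold (log2 fold change 5.36, adjusted p = 0.051).

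The other Hu genes behaved differently. elavl1, the broadly expressed HuR gene, was at 18.8 to 60.5 CPM in caps of 25 h over both copies and at 28.7 to 141 CPM in caps of 6 h, with no call against the control caps at either time. One annotated gene, Xelaev18009900m.g, overlaps elavl1.S on the same strand. elavl2 was well expressed at 6 h and nearly gone at 25 h in every kind of cap. elavl2.L was at 0.829 and 0.482 CPM in Ptf1a caps of 25 h, 2.47 and 0.884 CPM in mutant caps, 1.09 and 0.857 CPM in Neurog2 caps and 2.63 and 1.27 CPM in control caps, against 38.2 to 43.2 CPM over all 8 libraries of 6 h. elavl2.S was at 0.123 to 0.339 CPM in the 8 libraries of 25 h and at 25.5 to 34.2 CPM in the 8 of 6 h. Both copies fell between the times in all 4 kinds of cap: for elavl2.S the log2 change of 25 h over 6 h was -7.42 in Ptf1a caps, -6.44 in mutant caps, -6.52 in Neurog2 caps and -6.97 in control caps (SE 0.30 to 0.32, edgeR adjusted p = 1.3e-08, 1.69e-08, 1.62e-08 and 1.17e-08). elavl2.L also fell in Ptf1a caps of 25 h relative to control caps, by 1.62 ± 0.44 on the log2 scale (edgeR adjusted p = 0.0226), at levels of a few CPM or less. Without control replicate 1 it fell by 0.97 with an adjusted p of 0.28, and without Ptf1a replicate 2 the adjusted p was 0.152.

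The Nova genes had their highest levels in Ptf1a caps of 25 h. nova2.S (chromosome 8S, 77224512 to 77239107, plus strand) was at 29.1 and 30.4 CPM in Ptf1a caps of 25 h, 17.1 and 3.23 CPM in mutant caps and 5.48 and 20.3 CPM in Neurog2 caps, and had no count in either control library. At 6 h it was at 0.892 to 2.26 CPM in injected libraries and 0.707 and 0.816 CPM in control libraries. Against a floor of 3 counts over the 2 control libraries, nova2.S was at least 780-fold higher in Ptf1a caps of 25 h, at least 211-fold higher in mutant caps and at least 314-fold higher in Neurog2 caps (edgeR adjusted p = 0.000272, 0.00744 and 0.00334). Both Ptf1a libraries were above all 4 other injected libraries, but nova2.S was not called between injected caps in the main fit. In the fit with copies summed, the log2 difference of nova2 was 1.57 ± 0.71 between Ptf1a and mutant caps (edgeR adjusted p = 0.201). Between Ptf1a and Neurog2 caps it was 1.22 ± 0.70 (edgeR adjusted p = 0.32). Floors cover counting error only, and the excess of even counts makes them less certain than that.

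nova1.L (chromosome 8L, 89905122 to 89966675, minus strand) was likewise highest in the 2 Ptf1a libraries. It was at 20.1 and 33.9 CPM in Ptf1a caps of 25 h, 9.08 and 2.46 CPM in mutant caps, 2.69 and 8.50 CPM in Neurog2 caps, and 0.169 and 0.518 CPM in control caps. Its log2 fold change was 6.4 ± 0.84 in Ptf1a caps, 4.16 ± 0.78 in mutant caps and 4.12 ± 0.78 in Neurog2 caps (edgeR adjusted p = 0.000442, 0.0341 and 0.0141). nova1.S had fewer counts, at 2.58 and 5.94 CPM in Ptf1a caps and 0.113 and 0 CPM in control caps, and was called in Ptf1a caps (5.93 ± 1.08, edgeR adjusted p = 0.00266). In mutant caps (3.87 ± 1.04, adjusted p = 0.137) and Neurog2 caps (4.20 ± 1.04, adjusted p = 0.0512) nova1.S did not pass edgeR's threshold. At 6 h the 2 copies of nova1 were at 0.336 to 2.11 CPM over all 8 libraries and none was called.

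The NeuN gene rbfox3 had low levels and was higher in injected caps of 25 h. rbfox3.L (chromosome 9_10L, 28197405 to 28223521, plus strand) was at 3.99 and 3.40 CPM in Ptf1a caps, 2.32 and 0.819 CPM in mutant caps, 2.28 and 9.97 CPM in Neurog2 caps and 0.038 and 0.119 CPM in control caps. Its log2 fold change was 5.71 ± 0.89 in Ptf1a caps, 4.46 ± 0.87 in mutant caps and 6.44 ± 0.90 in Neurog2 caps (edgeR adjusted p = 0.00107, 0.0406 and 0.00432). rbfox3.S passed only in Ptf1a caps, at 1.90 and 2.0 CPM against 0.244 and 0 CPM in control caps (3.79 ± 0.96, edgeR adjusted p = 0.0153), with 2.56 ± 0.94 in mutant and 3.7 ± 0.96 in Neurog2 caps uncalled (adjusted p = 0.346 and 0.0627). It lost its call without Ptf1a replicate 1 (adjusted p = 0.052) or without control replicate 2 (adjusted p = 0.0622). At 6 h the control caps were not low: rbfox3.L was at 1.86 and 2.26 CPM there, above the 6 injected libraries except Neurog2 replicate 2 (2.09 CPM), which lay between them.

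The microexon regulator srrm4 differed between its copies. srrm4.L (chromosome 1L, 166763270 to 166778357, plus strand) was at 14.5 and 8.77 CPM in Ptf1a caps of 25 h, 10.3 and 0.95 CPM in mutant caps, 7.15 and 19.0 CPM in Neurog2 caps and 0.075 and 0.080 CPM in control caps. srrm4.S (chromosome 1S, 138175340 to 138281770, plus strand) was at 10.5 and 5.99 CPM in Ptf1a caps, 6.10 and 0.901 CPM in mutant caps, 3.5 and 9.52 CPM in Neurog2 caps and 0.150 and 0.239 CPM in control caps. Both copies were thus above the control libraries in all 6 injected libraries of 25 h. The log2 fold change of srrm4.L was 7.21 ± 1.31 in Ptf1a caps, 6.15 ± 1.27 in mutant caps and 7.38 ± 1.31 in Neurog2 caps (edgeR adjusted p = 0.00256, 0.0496 and 0.011). For srrm4.S it was 5.45 ± 0.88 in Ptf1a caps, 4.20 ± 0.85 in mutant caps and 5.11 ± 0.87 in Neurog2 caps (edgeR adjusted p = 0.00128, 0.0454 and 0.00888). At 6 h srrm4.S was at 5.91 to 8.46 CPM in injected and 4.66 to 5.25 CPM in control libraries. In control caps it fell by 4.72 ± 0.86 on the log2 scale from 6 h to 25 h (edgeR adjusted p = 0.000456). srrm4.L was at 0.312 to 0.840 CPM in injected libraries of 6 h against 0.129 and 0 CPM in control libraries, a log2 difference of 3.01 to 3.29 that did not pass (edgeR adjusted p = 0.462 to 1).

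Of the polypyrimidine tract binding genes, ptbp2 was higher in Ptf1a caps than in control caps of 25 h and ptbp1 was not called. ptbp1, over both copies, was at 349 to 526 CPM in the 8 libraries of 25 h and 156 to 363 CPM in the 8 of 6 h, with no call against the control caps at either time. ptbp1.L was higher at 25 h than at 6 h in every kind of cap, by 1.14 to 1.35 on the log2 scale. ptbp2.L (chromosome 4L, 92844884 to 92856036, plus strand) was at 11.5 and 12.3 CPM in Ptf1a caps of 25 h, 7.61 and 4.39 CPM in mutant caps, 3.84 and 6.05 CPM in Neurog2 caps and 2.84 and 3.78 CPM in control caps. ptbp2.S (chromosome 4S, 75427262 to 75453902, plus strand) was at 18.5 and 15.7 CPM in Ptf1a caps, 9.30 and 5.76 CPM in mutant caps, 5.65 and 9.71 CPM in Neurog2 caps and 3.7 and 2.07 CPM in control caps. For both copies every injected library was above both control libraries, by little for ptbp2.L in Neurog2 replicate 1 (3.84 against 3.78 CPM). Counting copies above and copies below, 16 of the 19 did not overlap the control caps in each of the 3 comparisons of 25 h. Both copies of ptbp2 were among them. In Ptf1a and Neurog2 caps so was elavl2.L, which lay below the control caps. The share over all genes is not given here, so this separation sets ptbp2 apart from nothing. The log2 fold change in Ptf1a caps was 1.85 ± 0.35 for ptbp2.L and 2.56 ± 0.55 for ptbp2.S (edgeR adjusted p = 0.00295 and 0.00633). Without control replicate 2, ptbp2.S had an adjusted p of 0.0686. Neither copy was called in mutant caps (log2 fold changes of 0.86 and 1.37) or Neurog2 caps (0.58 and 1.40). As a share of ptbp1 CPM, ptbp2 was at 2.79 to 3.79% in Ptf1a caps of 25 h, 1.12 to 1.78% in mutant caps, 1.13 to 2.08% in Neurog2 caps and 0.722 to 0.848% in control caps, so ptbp1 had far more counts in every library.

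Set directly against each other at 25 h, the injected caps gave 0 or 1 call among the 19 copies. Counts that small among 19 copies cannot be told from the shares of all genes. Ptf1a against mutant caps gave 0 copies (edgeR, against 4.4% higher and 3.81% lower of all genes). Of the 19 copies, 7 had an unadjusted p under 0.05, against 7199 of all 30384 genes. DESeq2's Wald test called 3 copies, against 2279 higher and 2726 lower among all genes. Ptf1a against Neurog2 caps gave 1 copy higher, ptbp2.L (1.27 ± 0.34, edgeR adjusted p = 0.0352), against 5.13% of all genes. That call was lost without Neurog2 replicate 1 (0.98, adjusted p = 0.242) and without either Ptf1a library (adjusted p = 0.0737 and 0.118). Mutant against Neurog2 caps gave 0 copies (edgeR, against 0.00987% of all genes in either direction). There, 3 copies and 1303 of all genes had an unadjusted p under 0.05, and DESeq2 called 0 copies. At 6 h, Ptf1a against mutant caps and Ptf1a against Neurog2 caps gave 0 copies each by edgeR and by DESeq2, and 0 at an unadjusted p under 0.05, where edgeR called 0.0329% and 0.138% of all genes. nova1.L came closest at 25 h, with a log2 difference of 2.23 ± 0.67 between Ptf1a and mutant caps (edgeR adjusted p = 0.061) and 2.27 ± 0.67 between Ptf1a and Neurog2 caps (adjusted p = 0.054). With the counts of both copies summed before the fit, nova1 was higher in Ptf1a caps than in mutant caps (2.22 ± 0.61, edgeR adjusted p = 0.0409) and Neurog2 caps (2.20 ± 0.61, adjusted p = 0.0398). ptbp2 was too, by 1.12 ± 0.30 over mutant caps (edgeR adjusted p = 0.0385) and 1.21 ± 0.30 over Neurog2 caps (adjusted p = 0.0251). For elavl3.L the log2 difference was 0.65 ± 0.65 between Ptf1a and mutant caps and -0.91 ± 0.65 between Ptf1a and Neurog2 caps, an interval wide enough to hold sizeable differences either way.

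A ratio of 2 genes within a library does not depend on its depth. The summed CPM of elavl4 was 0.505 to 0.515 of that of elavl3 in Ptf1a caps of 25 h, 0.546 to 0.571 in mutant caps and 0.491 to 0.548 in Neurog2 caps. This ratio was thus close to constant over libraries whose elavl3 level differed widely. The ratio of nova2 to elavl3 was 0.326 to 0.406 in Ptf1a caps, 0.198 to 0.199 in mutant caps and 0.073 to 0.080 in Neurog2 caps. For nova1 the ratio was 0.254 to 0.533 in Ptf1a caps, 0.123 to 0.189 in mutant caps and 0.038 to 0.047 in Neurog2 caps. In both Nova genes the 3 kinds of injected cap did not overlap. Control caps of 25 h had a nova1 ratio of 0.192 to 0.255, on few counts, which overlapped Ptf1a caps. For srrm4 it was 0.197 to 0.279 in Ptf1a caps, 0.114 to 0.191 in mutant caps and 0.103 to 0.156 in Neurog2 caps, and for rbfox3 0.066 to 0.072 in Ptf1a caps, 0.041 to 0.084 in mutant caps and 0.046 to 0.048 in Neurog2 caps. ptbp2, which control caps also express, had ratios of 0.336 to 0.375 in Ptf1a caps, 0.198 to 0.624 in mutant caps and 0.057 to 0.139 in Neurog2 caps. In control caps of 25 h, again on few counts, the ratio was 0.410 to 0.431 for elavl4 and 0 for nova2. For srrm4 it was 0.154 to 0.157 there, for rbfox3 0.059 to 0.192 and for ptbp2 2.88 to 4.46. The srrm4 range overlapped mutant and Neurog2 caps, and the rbfox3 range overlapped Ptf1a and mutant caps. These ratios rest on 2 libraries a group, carry no test, and were singled out after their values were seen.

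**Figure D3:**
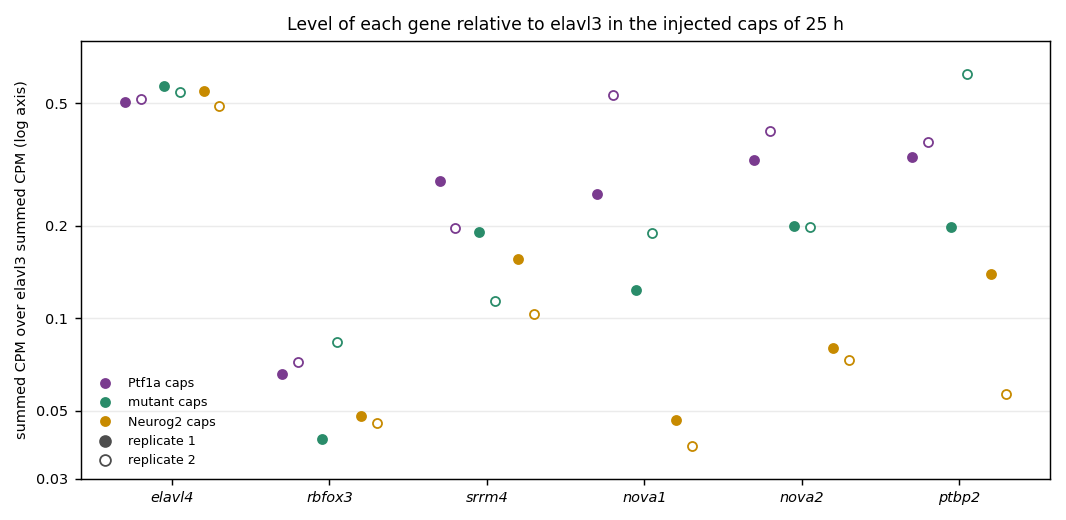
Summed CPM of 6 genes divided by the summed CPM of elavl3 in the same library (log axis), for injected caps of 25 h; each point is 1 library, filled for replicate 1 and open for replicate 2. elavl4 lies between 0.491 and 0.571 in all 6 libraries, while nova1 and nova2 are highest in Ptf1a caps and lowest in Neurog2 caps.

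Whether an mRNA's effect differed between the times was tested as an interaction, the effect at 25 h minus the effect at 6 h. For Ptf1a, 7 of 19 copies had a larger effect at 25 h and 0 a smaller one, against 4.47% and 5.34% of all genes. They were nova1.L (5.22 ± 1.03, edgeR adjusted p = 0.00923), nova1.S (6.02 ± 1.34, adjusted p = 0.0165), nova2.S (adjusted p = 0.00193), rbfox3.L (6.08 ± 1.10, adjusted p = 0.00617), srrm4.S (5.07 ± 1.08, adjusted p = 0.0134), elavl4.S (5.50 ± 1.51, adjusted p = 0.0392) and ptbp2.L (1.76 ± 0.48, adjusted p = 0.0377). For Neurog2 nova2.S and rbfox3.L passed (2 copies, against 0.207% of all genes, edgeR adjusted p = 0.0366 and 0.0316), and for the mutant nova2.S did (1 copy, against 0.0724%, edgeR adjusted p = 0.0432). elavl3 did not: the difference in effect was 2.09 ± 1.0 for elavl3.L and 0.80 ± 1.06 for elavl3.S with Ptf1a (edgeR adjusted p = 0.224 and 0.726). Both control groups enter each interaction, and nova1.S, nova2.S, rbfox3.L, srrm4.S and elavl3.L were themselves lower in control caps of 25 h than in those of 6 h. The Neurog2 and mutant calls were lost in most cases where 1 library was left out, with 0 to 5 copies called for Neurog2 and 0 to 2 for the mutant, and 3 to 5 for Ptf1a. elavl4.S and ptbp2.L lost their Ptf1a calls whichever of the 8 libraries was left out (edgeR adjusted p = 0.0535 to 0.171 and 0.0635 to 0.145), nova1.S without 4 of the 8 and srrm4.S without 2. With both copies summed, the difference for elavl4 was 3.35 (edgeR adjusted p = 0.13).

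Between the times within 1 kind of cap, Ptf1a caps had 9 copies higher and 3 lower at 25 h than at 6 h, against 28.7% and 29.8% of all genes. Mutant caps had 7 higher and 3 lower, against 28.6% and 30.7%, Neurog2 caps 8 and 4, against 30.7% and 29.7%, and control caps 2 and 8, against 28.9% and 30.4%. In control caps the copies that fell were elavl1.S (-1.41), elavl2.L (-4.35), elavl2.S (-6.97), elavl3.L (-3.0), nova1.S (-3.27), nova2.S, rbfox3.L (-4.87) and srrm4.S (-4.72), as log2 changes. nova2.S was at least 19.6-fold lower there, against the floor of 3 counts (edgeR adjusted p = 0.00171). The 2 that rose were ptbp1.L (1.35 ± 0.24, edgeR adjusted p = 0.000343) and ptbp2.S (1.95 ± 0.55, adjusted p = 0.00873). In injected caps elavl4.L rose by 5.16 ± 1.01 (Ptf1a), 6.21 ± 1.09 (mutant) and 7.36 ± 1.14 (Neurog2) on the log2 scale, and elavl3.L and elavl3.S changed in none of the 3 by call, with log2 changes of -1.17 to 1.06.

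The share of the .L copy in a gene's summed counts did not overlap between the 8 libraries of 25 h and the 8 of 6 h in elavl1, elavl2, ptbp2 and srrm4. It overlapped in elavl3, elavl4, nova1, ptbp1 and rbfox3. How often it overlaps over all genes with both copies was not computed, so none of these genes can be called unusual. In elavl3 the kinds of cap stood apart at 6 h. In elavl3 the .L copy gave 70.4 to 72.1% of counts in Ptf1a caps of 6 h, 66.0 to 67.6% in mutant caps, 37.2 to 49.3% in Neurog2 caps and 82.5 to 86.1% in control caps. At 25 h it was 35.3 to 44.9% in all 8 libraries, so .S counts were the majority in each. In srrm4 the .L copy gave 51.3 to 67.1% in injected caps of 25 h and 25.0 to 33.3% in control caps, where counts were few, and 0 to 10.5% in the 8 libraries of 6 h. In ptbp2 it was 38.3 to 45.0% at 25 h, except in 1 control library at 64.6%, and 68.6 to 87.8% at 6 h. In elavl1 it was 38.1 to 41.8% at 25 h and 24.9 to 31.1% at 6 h, and in elavl2 68.8 to 90.9% at 25 h, where counts were few, and 55.7 to 60.7% at 6 h. Reads that fit both copies may have been assigned to either, and the share was not tested. The models of the copies also differ in extent: elavl3.S, ptbp2.L, rbfox3.L and srrm4.L are annotated without untranslated regions, which limits a comparison of copies within a library more than one between libraries.

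**Figure D4:**
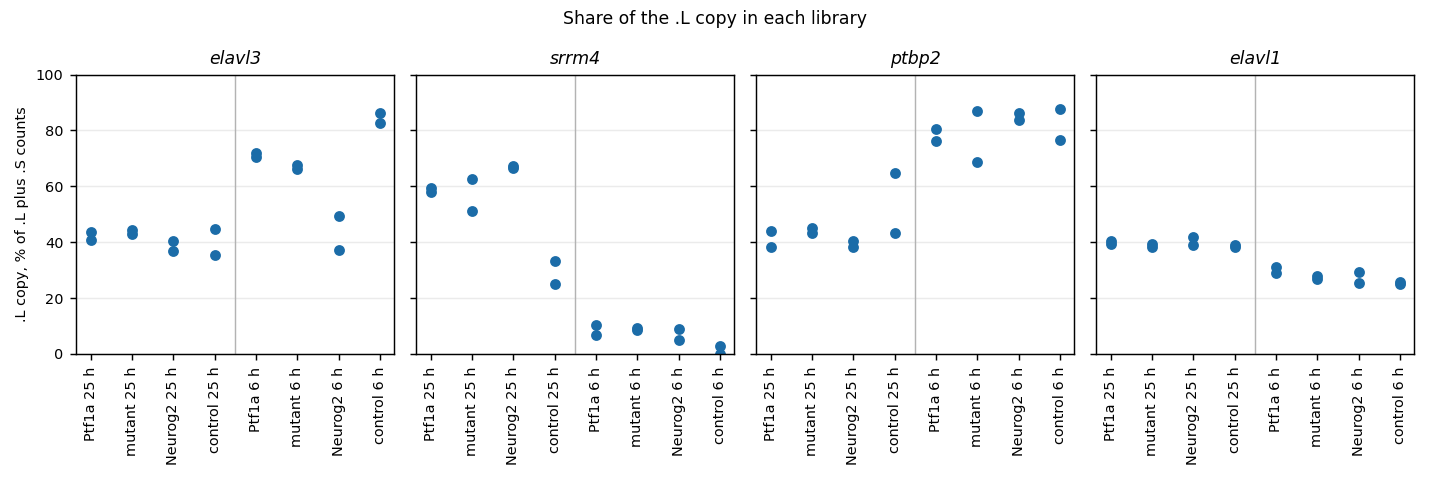
Share of the .L copy, in % of .L plus .S counts, in each of the 16 libraries for elavl3, srrm4, ptbp2 and elavl1, with caps of 25 h left of the grey line and caps of 6 h right of it; each point is 1 library. elavl3 at 6 h runs between 37.2% in Neurog2 caps and 86.1% in control caps, and the libraries of 25 h lie between 35.3% and 44.9%.

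Per length, the 10 genes covered a wide range. In Ptf1a caps of 25 h the order of CPM per kb of exon, both copies summed, was ptbp1 at 235 ± 40.0 (SD, n = 2), elavl3 at 32.6 ± 4.31, elavl1 at 23.2 ± 8.17, ptbp2 at 13.6 ± 0.235, elavl4 at 12.9 ± 1.38, nova2 at 9.86 ± 0.296, srrm4 at 7.19 ± 2.53, rbfox3 at 5.39 ± 0.406, nova1 at 4.48 ± 1.88 and elavl2 at 0.198 ± 0.036. Neighbours within about 1 SD of each other, such as ptbp2 and elavl4, or rbfox3 and nova1, do not differ beyond their spread. In mutant caps elavl3 was at 20.1 ± 19.4 and nova2 at 3.36 ± 3.24 CPM per kb, and in Neurog2 caps at 69.7 ± 60.0 and 4.27 ± 3.47. In control caps of 25 h ptbp1 (208 ± 7.76) and elavl1 (18.7 ± 1.49) led, ptbp2 (3.17 ± 0.079) came next, and the other 7 genes were at 0.701 CPM per kb or less. These values use the exon models of the deposited annotation. A model without untranslated regions can change both counts and length, so the direction of its effect on the value per kb is not known.

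Other RNA-binding genes were read from 5 lists, for which the shares of all genes given above for each comparison are the background. For these lists, rose and fell mean called higher and lower than in control caps of 25 h. The first held 32 tested copies of other alternative splicing regulators (Rbfox, Celf, Khdrbs, Musashi, Muscleblind, Qki and relatives). Of these, 8 rose and 2 fell in Ptf1a caps of 25 h, against 11.9% and 8.62% of all genes. In mutant caps 3 rose and in Neurog2 caps 6 rose, against 0.803% and 2.98%. The largest changes with Ptf1a were in srrm3.L, a relative of srrm4, at 8.29 and 5.24 CPM in Ptf1a caps and 0.113 and 0.159 CPM in control caps (5.66 ± 0.89, edgeR adjusted p = 0.00114), celf2.L (4.61 ± 0.64) and msi1.S, the Musashi gene of neural progenitors (59.4 and 68.7 CPM against 2.89 and 2.79 CPM, 4.49 ± 0.61). With Neurog2 they were in srrm3.L (5.84 ± 0.90), srrm3.S (4.46 ± 0.78) and celf2.S (4.01 ± 0.85). Of 4 copies of epithelial splicing regulators 2 fell in Ptf1a caps, against 8.62% of all genes: rbm47.S was at 57.8 and 53.2 CPM in Ptf1a caps and 154 and 134 CPM in control caps (-1.38 ± 0.41, edgeR adjusted p = 0.0341), and esrp1.S at 415 and 506 CPM and 907 and 898 CPM (-0.97 ± 0.21, adjusted p = 0.00765). In Neurog2 caps esrp1.S was at 822 and 673 CPM and was not called.

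Of 52 tested copies of general splicing factors 4 rose in Ptf1a caps of 25 h, a share below the 11.9% of all genes that rose, led by srsf6.S (227 and 150 CPM in Ptf1a caps, 69.3 and 68.5 CPM in control caps, 1.45 ± 0.23), srsf7.L (1.05 ± 0.21) and srsf7.S (0.89 ± 0.29). By edgeR 0 did in mutant or Neurog2 caps, where 0.803% and 2.98% of all genes rose, with 0 at an unadjusted p under 0.05 and 0 by DESeq2; hnrnpa1.L was at 1231 and 988 CPM in Neurog2 caps and 1571 and 1159 CPM in control caps. Of 24 regulators of mRNA transport and translation 3 rose and 1 fell in Ptf1a caps, close to or below the 11.9% and 8.62% of all genes. The 1 that fell was caprin2.L (-1.22 ± 0.31). In mutant or Neurog2 caps 0 were called by edgeR or DESeq2 (0 and 1 at an unadjusted p under 0.05). caprin1.S was at 375 and 413 CPM in Neurog2 caps and 402 and 526 CPM in control caps. Of 15 copies of rest and its corepressors 9 rose in Ptf1a caps, against 11.9% of all genes. In mutant and Neurog2 caps 1 rose in each, against 0.803% and 2.98%, and counts that small cannot be told from these shares. The level of rest itself is not reported here. REST is a repressor of neuronal genes outside neurons, and rcor1 and rcor2 encode CoREST proteins that act with it. rcor2.L was at 24.9 and 37.2 CPM in Ptf1a caps and 2.69 and 4.22 CPM in control caps (3.18 ± 0.61), hdac2.L, a histone deacetylase gene, changed by 2.35 ± 0.71, and rcor1.L by 1.75 ± 0.27 in Ptf1a caps and 1.66 ± 0.27 in Neurog2 caps. At 6 h edgeR called 0 copies of the 5 lists against control caps for any of the 3 mRNAs. Per list, 0 to 17 copies had an unadjusted p under 0.05, and DESeq2 called 0 to 2. The 17 were of the 52 general splicing factors in mutant caps, where 1981 of all 30384 genes had such a p.

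Likeness to a member was taken as Pearson's r of log2 CPM over the 16 libraries, among 21332 genes with a copy symbol, and is a description, since the libraries share groups and depth. The genes most like elavl3.L were prnp.S (0.939), insm1.L (0.915), ulk1.S (0.912), cbfb.L (0.911) and pcdh9.L (0.910). Those most like elavl3.S were ebf2.S (0.939), ebf2.L (0.938), rnf165.L (0.915), lrrn1-like.1.S (0.907) and ulk1.S (0.907). nova2.S was most like nfasc.S (0.975), tuba4a.S (0.969), dclk1.L (0.963), apc2.S (0.959) and sv2b-like.S (0.955). The copies of srrm4 had different neighbours: slc43a2.S (0.965), onecut1.2.S (0.963), asb2.L (0.955), neurod4.S (0.954) and neurod4.L (0.951) for srrm4.L, and dbn1.L (0.976), sipa1l2.S (0.969), sh2d3c.S (0.967), sptbn1.S (0.954) and cbfa2t3.S (0.953) for srrm4.S. ulk1.S was the 1 gene in more than 1 of these lists of 5.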

How the data were processed

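RNA from animal caps was sequenced, and the authors deposited raw counts per gene, 1 file per library, made with featureCounts per the submitters' processing notes, which also name CASAVA 1.8, STAR 2.5 and DESeq2 1.8. Strandedness and the handling of reads that map to several places are not given in the sources used here. Coordinates and exon lengths come from the deposited annotation of build 9.1, where 41310 of 45038 genes have 1 record of the same name. Counts in 16 libraries were fitted in R 4.3.3 with edgeR 4.0.16 (TMM, filterByExpr by group, robust quasi-likelihood), with a mean per group and no block, on 30384 genes, leaving 8 residual degrees of freedom (the common coefficient of biological variation was 0.378); all 19 copies passed the filter. SE was taken from the fold change and its F statistic. Fitted folds use a prior count of 0.125, and folds against 0 counts a floor of 3 counts over the group's 2 libraries. The fit was also run on simulated counts, for Ptf1a against control caps of 6 h only, and the outcome is not reported here. Those counts had neither the excess of even numbers nor the correlated replicate differences of the real libraries. Alternatives were DESeq2 1.42.0, its size factors, no filter, replicate blocks, fewer libraries in the fit, summed copies and leaving out each library. Every member was named; from each list up to 3 called copies with the largest change at 25 h with Ptf1a and with Neurog2 were named, or else the copy with the highest level. Some copies that this rule named are not reported here. The members and lists were chosen with earlier results of these data known, so no p-value here is independent of that choice.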

Additional observations from a re-analysis of the deposited data

Results flagged for a closer look

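Differences between the times in the effect of an injected mRNA (the effect at 25 h minus that at 6 h, edgeR interaction) were picked out because the test of the difference itself passed. With Ptf1a these were elavl4.S (5.50 ± 1.51, adjusted p = 0.0392), nova1.L (5.22 ± 1.03, adjusted p = 0.00923), nova1.S (6.02 ± 1.34, adjusted p = 0.0165), ptbp2.L (1.76 ± 0.48, adjusted p = 0.0377), rbfox3.L (6.08 ± 1.10, adjusted p = 0.00617) and srrm4.S (5.07 ± 1.08, adjusted p = 0.0134), all as log2 differences. With Neurog2 rbfox3.L passed (6.65 ± 1.11, adjusted p = 0.0316). nova2.S passed with Ptf1a (13.65, edgeR adjusted p = 0.00193), with the mutant (11.68, adjusted p = 0.0432) and with Neurog2 (11.71, adjusted p = 0.0366). Its fitted values depend on the prior count, because the control libraries of 25 h hold 0 counts of nova2.S, and they are no bounds.

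Leaving out any 1 of the 8 libraries ended the Ptf1a calls of elavl4.S (adjusted p = 0.0535 to 0.171) and ptbp2.L (adjusted p = 0.0635 to 0.145). elavl4.S was also uncalled with the replicate block within each time (adjusted p = 0.0678) and with copies summed (adjusted p = 0.13); ptbp2.L was uncalled (adjusted p = 0.0598) when no low counts were filtered out.

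In control caps nova1.S, nova2.S, rbfox3.L and srrm4.S were themselves lower at 25 h than at 6 h. rbfox3.L was at 0.038 and 0.119 CPM in control caps of 25 h and 1.86 and 2.26 CPM in those of 6 h. Without Neurog2 replicate 2 of 25 h, the library with the highest neuronal levels, rbfox3.L was at 5.23 with an adjusted p of 0.0906.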

How the results depend on the processing

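Of 91 called differences of single copies, the alternatives gave 1078 values, of which 864 kept the call, 214 lost it and 0 changed direction, and 44 differences were called under every alternative. Of 79 uncalled differences of at least 1 on the log2 scale, 1016 values gave 87 calls and 11 changes of direction; the cause was not tested. Leaving out Neurog2 replicate 2 of 25 h gave the positive end for elavl3.S between Ptf1a and Neurog2 caps of 25 h (range over left-out libraries -1.87 to 0.22) and the negative end between the times in Neurog2 caps for elavl3.S (-0.34 to 1.75) and nova1.S (-0.20 to 1.93) and for the Neurog2 effect of elavl3.S (-0.40 to 1.70). With copies summed, srrm4.S between the times in mutant caps became 0.17. Leaving out control replicate 2 of 6 h gave the negative end for the effect of elavl4.L between the times (Ptf1a -3.50 to 3.66, mutant -2.44 to 4.72, Neurog2 -1.29 to 5.87). Leaving out control replicate 1 of 6 h gave that for srrm4.L (Ptf1a -1.32 to 4.97, mutant -2.60 to 3.73, Neurog2 -1.09 to 5.29). In each case the control library of 6 h that was left held 0 counts of the copy. These negative ends therefore depend on the prior count and are no bounds.

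Counts of copies called that moved by over 1.5 times were as follows. At 6 h, Ptf1a caps (2 called) had 1 with DESeq2's size factors, 0 without a filter, 1 with the replicate block within each time and 0 with only the libraries compared. Neurog2 caps (1) had 0 without a filter, with the block within each time, with only the libraries compared or with copies summed, and 2 by DESeq2. Mutant caps (1) had 0 in the same 4 settings, 2 with the 8 libraries of the time and 2 by DESeq2. At 25 h, mutant caps (9) had 5 with DESeq2's size factors and 0 with the 8 libraries of the time or only those compared, and Neurog2 caps (9) had 5 and 0 in the last 2 settings. Ptf1a against mutant caps (0) had 2 with the replicate block, 3 with the block within each time, 4 with copies summed and 3 by DESeq2, and Ptf1a against Neurog2 caps (1) had 2, 3, 4 and 2, and 0 with the 8 libraries or those compared; with copies summed, the 4 are the .L and .S copies of nova1 and ptbp2, whose sums were called. The effect between times had 11 copies by DESeq2 for Ptf1a (7), 4 for the mutant (1) and 7 for Neurog2 (2). With the block, the block within each time and only the libraries compared, it had 0, 0 and 0 for the mutant and 1, 1 and 0 for Neurog2.

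Leaving out 1 library gave 0 to 1 copies at 6 h for Ptf1a, for the mutant and for Neurog2. At 25 h it gave 12 to 13 for Ptf1a, 0 to 9 for the mutant and 0 to 11 for Neurog2, 0 to 3 between Ptf1a and mutant caps and 0 to 2 between Ptf1a and Neurog2 caps. Between the times it gave 11 to 12 for Ptf1a, 8 to 11 for the mutant, 8 to 13 for Neurog2 and 9 to 11 for controls, and for the effects 3 to 5, 0 to 2 and 0 to 5. Where a group is left with 1 library, that library is assumed to vary like the others. The differences between replicates 1 and 2 correlated in all 28 pairs of groups (r from 0.117 to 0.813). They did so most between groups of 6 h (r from 0.717 to 0.813). No label ties a number to a batch, so whether same-numbered libraries share one is not known, and the main fit has no block. With the block within each time, 5875 genes were higher and 4994 lower in Ptf1a than in control caps of 25 h, against 3609 and 2619 in the main fit. Under DESeq2's size factors the median log2 change over all genes in Ptf1a against control caps of 6 h was 0.002 in place of 0.15, and they gave 3132 higher and 3350 lower genes at 25 h, against 3609 and 2619.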
